A study of Mus musculus with 3 samples.

Results

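The genes described here encode the enzymes that make cyclic AMP and cyclic GMP, break them down and respond to them. They were taken from the count tables by gene symbol, and 55 of the 32532 symbols listed qualified. These were 10 adenylyl cyclases, 4 soluble and 5 membrane guanylyl cyclases, 24 phosphodiesterase (PDE) genes, 6 subunits of protein kinase A (PKA), 2 isoforms of protein kinase G (PKG), the 2 Epac exchange factors Rapgef3 and Rapgef4, neuronal nitric oxide synthase Nos1 and its adaptor Nos1ap. Genes without a count stayed in. RNA on EGFP-tagged ribosomes had been captured from the whole cortex of adult mice. All animals carried the driver Htr3a-Cre (NO176) and the reporter Rosa26-LSL-EGFP/Rpl10a, which makes a tagged ribosomal protein in cells where Cre has been active. The 3 libraries, replicates 1, 2 and 3, form a single immunopurified group, and RNA of unpurified cortex was not analysed here. Every comparison therefore sets genes against one another inside the same libraries. Nothing in the labels says that the libraries came from separate animals, so the p-values reflect only how much these samples scatter, and that scatter could be technical. The reporter stays on after Cre has acted, so it marks any cell with past driver activity, and the labels name no further sort of the captured cells.

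Adenylyl cyclases turn ATP into cyclic AMP under the control of G proteins and, for some isoforms, calcium. Soluble guanylyl cyclase makes cyclic GMP when it binds nitric oxide. PKA is a tetramer in which regulatory subunits hold catalytic subunits inactive until cyclic AMP binds, PKG and Epac respond to cyclic GMP and cyclic AMP respectively, and PDEs end the signals. In cortical interneurons nitric oxide synthase is known from neurogliaform cells and from long-range somatostatin cells.

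Gene counts summed to between 13951332 and 14461053 per library. Levels are given as TPM, counts corrected for the length of a gene's merged exons and scaled to the same total per library, and each ± gives the SD (n = 3 libraries). The summed level of 8 GABAergic markers ran from 3902 to 4215 TPM and that of 6 Htr3a class markers from 2600 to 3213 TPM. For 5 markers of interneurons from the medial ganglionic eminence it ran from 7907 to 8934 TPM, with Sst at 7648 to 8732 TPM. For 8 excitatory markers it ran from 3248 to 3614 TPM, of which Camk2a made up 2317 to 2885 TPM. Htr3a itself, the serotonin receptor gene of the driver, stood at 602 ± 46.1 TPM and the neuropeptide gene Sst at 8249.7 ± 552 TPM. Summed levels of 6 oligodendrocyte markers were 367, 249 and 218 TPM in replicates 1, 2 and 3. Those of 6 astrocyte markers lay between 35.01 and 39.4 TPM, of 5 microglial markers between 9.56 and 14.8 TPM, of 4 endothelial markers between 2.72 and 3.05 TPM, of 4 mural markers between 25.2 and 26.2 TPM, of 3 oligodendrocyte precursor markers between 26.5 and 32.2 TPM and of 6 striatal projection neuron markers between 84.9 and 95.0 TPM. No gene of these lists was at 0 in all libraries. In pooled tissue RNA, few cells with much of a transcript and many cells with little of it cannot be told apart.

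PKA acts on transcription through CREB, a factor that binds the cyclic AMP response element TGACGTCA, whose reverse complement is the same sequence. The 250 bases before annotated starts were searched in the RefSeq promoter sequences of GRCm38.p6, which held an entry for 44 of the 55 genes. The full element stood in 1 of their 85 promoter entries, an entry of Prkar1a (1.18%), and in 1.55% of the 32851 entries of all genes. Its core TGACG, searched on both strands and contained in every full element, stood in 18 of the 85 entries (21.2%) and in 17.8% of all entries. The 4 PKA genes with the highest levels of all the enzymes are shown, each by its match nearest to a start, with the full element (Prkar1a) or the core (the others) in capitals and the strand of the gene read 5′ to 3′. A match describes the letters only.
Prkar1a, + strand, chr11:109650874-109650933: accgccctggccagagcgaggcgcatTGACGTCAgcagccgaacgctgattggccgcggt
Prkar1b, - strand, chr5:139150020-139150076: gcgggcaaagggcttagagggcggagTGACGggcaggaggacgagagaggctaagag
Prkaca, + strand, chr8:83972946-83972977: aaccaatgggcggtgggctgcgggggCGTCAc
Prkacb, - strand, chr3:146813018-146813074: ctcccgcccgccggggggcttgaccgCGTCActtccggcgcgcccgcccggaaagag
The Prkar1a element began 49 bases before a start that lies inside the gene, and the core in Prkar1b also began 49 bases before its start. The cores in Prkaca and Prkacb began 6 and 102 bases before theirs.

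Most of these enzymes were present on the captured ribosomes, at levels from no count to 1029.7 TPM on average (Prkar1a). At least 1 TPM in every library was reached by 42 of the 55 genes, at least 10 TPM by 31 and at least 100 TPM by 14 (25.5%), against 50.9%, 33.2% and 7.41% of the 23890 genes with a known length. PKA subunits made up 59.1% ± 0.687 of the summed level of all 55 genes, which was 5795 ± 331 TPM. That share was 52.3% ± 1.46 with principal transcripts as length and 44.8% ± 1.80 without length correction. Counts were 0 in all libraries for Gucy2d, Pde6a and Pde6h, which allows up to 3 counts each, or 0.207 to 0.215 CPM (counts scaled to library size). Of the 52 genes with a count, 29 lay above the median of all genes with a count and 17 below it, while 6 did not pass the test (limma, Benjamini-Hochberg adjusted p under 0.05). Among all 16652 genes tested, 42.8% were called above that median and 42.4% below it. The median itself was 10.2, 11.3 and 11.7 TPM in replicates 1, 2 and 3.

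**Figure D1:**
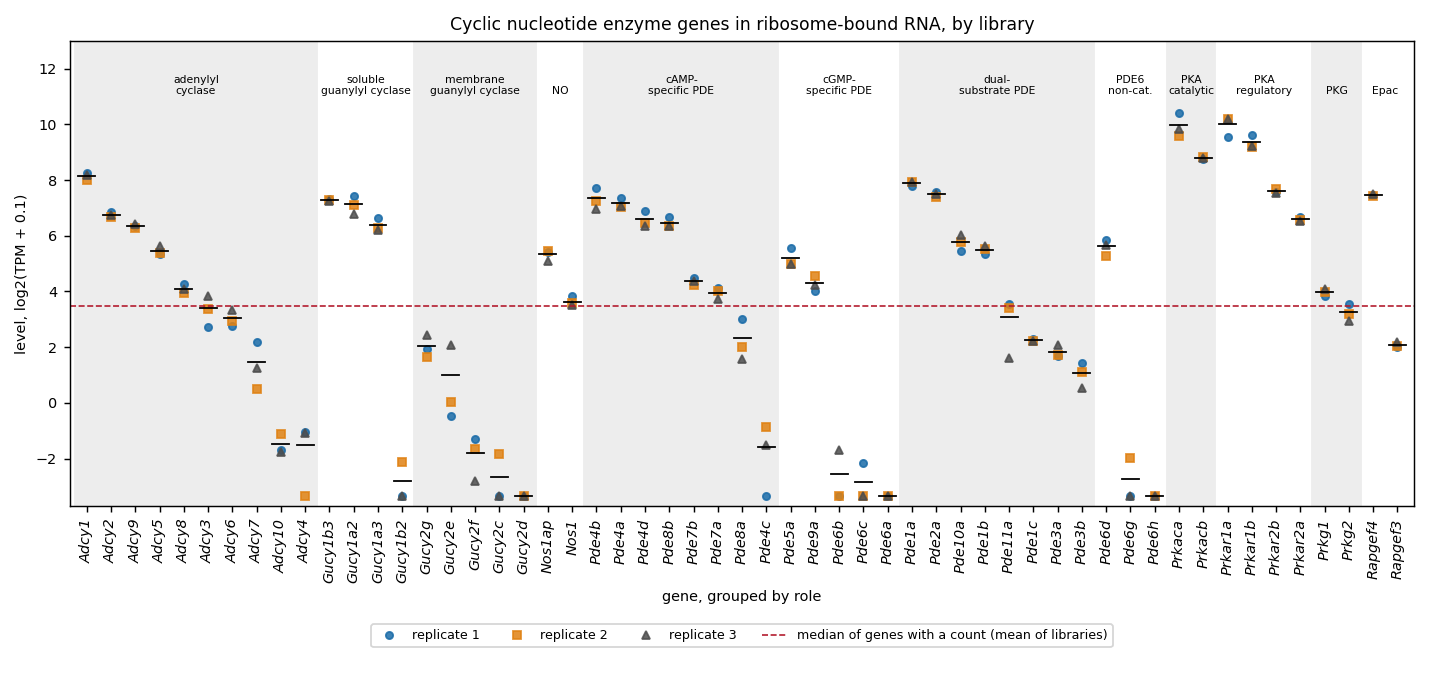
Level of each of the 55 genes as log2(TPM + 0.1), grouped by role along the horizontal axis, with 1 symbol per library, a bar at the mean of the libraries and a dashed line at the median of genes with a count. Prkar1a, Prkaca, Prkar1b and Prkacb stand highest, while most membrane guanylyl cyclases and the catalytic Pde6 genes lie near the lower edge, where genes at 0 are drawn.

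Adcy1, a cyclase stimulated by calcium and calmodulin, was the leading adenylyl cyclase and supplied 50.8% ± 1.13 of the summed level of the 10 genes. The share was 49.4% ± 1.21 with principal transcripts as length and 70.5% ± 1.06 without length correction. Adcy1 stood at 302, 255 and 289 TPM in replicates 1, 2 and 3 (282 ± 23.9). Adcy2, a cyclase known for activation by G protein βγ subunits, stood at 117, 102 and 106 TPM (108 ± 7.72). The ranges of both genes were far apart. Adcy9, which responds poorly to forskolin, followed at 82.0 ± 3.76 TPM, and Adcy5, the main cyclase of striatal neurons, at 43.7 ± 4.58 TPM. Adcy8, the other classical calcium-stimulated isoform, was far lower at 19.3, 15.3 and 16.8 TPM. Adcy1 lies on chromosome 11 from 7063489 to 7178506 (GRCm38) and has 12522 nt of merged exons.

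All 9 other adenylyl cyclases lay below Adcy1 in the fit that set every gene against it (limma, adjusted p between 7.65e-05 and 0.00115), as did 94.1% of all genes tested, while 2.07% lay above it. Adcy1 exceeded Adcy2 2.597-fold, Adcy9 3.43-fold, Adcy5 6.45-fold and Adcy8 16.4-fold. Against the library median, 5 of the 10 lay above it and 3 below it, where 42.8% and 42.4% of all genes tested were called above and below. The call for Adcy8, a log2 difference of 0.62 from the median (limma, adjusted p = 0.0321), was lost without any single library (adjusted p 0.0608 to 0.102), with either single-transcript length and against the median of protein-coding genes.

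The lower cyclases varied more. Adcy3, the cyclase of neuronal primary cilia, stood at 6.45, 10.4 and 14.4 TPM, lowest in replicate 1 and highest in replicate 3. Exons of Cenpo, a centromere protein gene on the opposite strand, overlapped 22.1% of its exons. Adcy6, a close relative of Adcy5, stood at 8.10 ± 1.66 TPM. Adcy7, best known from immune cells, stood at 4.47, 1.32 and 2.31 TPM, with counts of 83, 25 and 45. The 5 microglial markers summed to 14.8, 9.56 and 11.6 TPM. P2ry12, at 8.84, 4.19 and 5.71 TPM, was the 1 of the 5 with the same order of libraries as Adcy7, and the part of these cells in its level was not tested. Adcy10, the bicarbonate-sensitive soluble cyclase, had 5, 9 and 5 counts, and Adcy4, known from endothelium, had 5, 0 and 5.

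Soluble guanylyl cyclase was present with both kinds of subunit, while membrane guanylyl cyclases were low or near absent. The β1 subunit gene Gucy1b3 (Gucy1b1 in current nomenclature), which every nitric oxide receptor needs, stood at 160.0, 155 and 152 TPM (156 ± 4.01). The α2 gene Gucy1a2 stood at 173, 138 and 109 TPM (140.2 ± 32.2), and the α1 gene Gucy1a3 (Gucy1a1) at 99.05, 78.1 and 74.6 TPM (83.9 ± 13.23). Levels of the β1 gene were close together in all libraries, while both α genes were highest in replicate 1 and lowest in replicate 3. The sum of both α genes was 1.70, 1.39 and 1.21 times the β1 level, and 3.39, 2.78 and 2.34 times with principal transcripts as length. Gucy1b2, a β subunit gene of uncertain function, had a single count in replicate 2.

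Gucy1a3 lay 1.87-fold below Gucy1b3 (limma, adjusted p = 0.00566), and 88.8% of all genes were called below and 4.97% above Gucy1b3 in the same fit. Gucy1a2 differed from Gucy1b3 by a log2 value of -0.18 (SD 0.30; limma, adjusted p = 0.384), which was within the spread between libraries. That order depended on length, since the difference was 1.11 with the principal transcript of each gene as length, and the call for Gucy1a3 was lost without any length correction (-0.08). Among the 5 membrane guanylyl cyclases 4 were called below the library median, as were 42.4% of all genes tested. Gucy2g stood at 3.73, 3.02 and 5.34 TPM. Gucy2e, a cyclase of photoreceptors, stood at 0.631, 0.927 and 4.10 TPM, with 16, 24 and 109 counts, so that replicate 3 stood apart. Summed levels of 3 photoreceptor markers were 0.585, 0.479 and 1.44 TPM. Sag, with 7, 12 and 34 counts, was the 1 of the 3 that was highest in replicate 3, and its part in that value was not tested. The call for Gucy2e was lost without replicate 1 (limma, adjusted p = 0.0586). Gucy2f, the other retinal cyclase, had 7, 5 and 1 counts, and Gucy2c, the guanylin receptor of the gut, had 0, 2 and 0.

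Nos1 was modest in level. The synthase stood at 14.1, 11.9 and 11.2 TPM (12.4 ± 1.49), and its log2 difference from the library median was 0.15 (SD 0.27; limma, adjusted p = 0.472). That place depended on the processing. The difference was 1.55 without length correction (limma, adjusted p = 0.00129) and 2.52 without a filter on low counts (limma, adjusted p = 0.00019). With a mean of at least 1 CPM it was -0.85 (limma, adjusted p = 0.00369). Nos1ap, an adaptor that binds the PDZ domain of the synthase, stood at 42.9, 43.8 and 33.9 TPM (40.2 ± 5.48). It lay above Nos1 in 3 of 3 libraries, by 1.69 on the log2 scale (SD 0.16; limma, adjusted p = 0.00182), where 39.8% of all genes were called above Nos1. That value was 1.07 without length correction and 2.81 with lengths of principal transcripts. Nos1 lies on chromosome 5 from 117781032 to 117958840, with exons over 11151 nt. Chodl and Tacr1, markers of long-range somatostatin cells, summed to between 4.87 and 6.07 TPM.

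The 6 highest PDE genes were followed by a long tail. Pde1a, which is stimulated by calcium and calmodulin and acts on both nucleotides, led at 221, 245 and 244 TPM (237 ± 13.6). This lead held with merged exons only: Pde4b stood above Pde1a with the longest or principal transcript and without length correction. Pde2a, a dual-substrate enzyme that cyclic GMP activates, stood at 192, 168 and 179 TPM (180.0 ± 11.9). The cyclic AMP-specific Pde4b stood at 209.6, 153 and 126 TPM (163 ± 42.7) and its relative Pde4a at 164, 130.4 and 134 TPM (143 ± 18.6). Ranges of Pde2a and Pde4b overlapped, as did those of Pde4b and Pde4a. Pde4d at 95.9 ± 18.7 TPM and the high-affinity Pde8b at 88.1 ± 12.6 TPM also overlapped, and completed the 6. Without length correction Pde10a, at 139 ± 29.5 CPM, stood above Pde8b, at 102 ± 11.7 CPM.

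By substrate, the cyclic AMP-specific enzymes held 47.1% ± 4.73 of the summed level of catalytic PDE genes, the dual-substrate enzymes 47.9% ± 4.90 and the cyclic GMP-specific enzymes 5.01% ± 0.204. With principal transcripts as length the cyclic AMP-specific share was 58.8% ± 4.83 and the dual-substrate share 37.5% ± 4.78, so the near equality rests on merged exons. With merged exons the order of both larger classes changed between libraries: cyclic AMP-specific genes held 52.4% in replicate 1 but 45.5% and 43.3% in replicates 2 and 3. The Pde4 family summed to 491, 373 and 342 TPM, with Pde4c at 0, 7 and 4 counts, and the Pde1 family to 266, 295 and 298 TPM. Within the Pde1 family, Pde1b stood at 45.3 ± 4.35 TPM and Pde1c at 4.64 ± 0.133 TPM. Pde10a, an enzyme concentrated in striatal projection neurons, stood at 44.2, 54.7 and 65.3 TPM. That order over the libraries was opposite to that of the 6 striatal markers, whose sums were 95.0, 88.2 and 84.9 TPM.

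Among cyclic GMP-specific genes, Pde5a, the target of sildenafil, stood at 46.9, 31.7 and 31.7 TPM and was highest in replicate 1. Pde9a, the enzyme with the highest affinity for cyclic GMP, stood at 16.2, 23.3 and 18.8 TPM. The photoreceptor enzymes were at the floor, with 0, 0 and 3 counts for Pde6b and 1, 0 and 0 for Pde6c. Pde6d, which is named with the Pde6 complex but serves as a carrier of prenylated proteins in many tissues, stood at 57.6, 38.8 and 50.9 TPM. Pde6g, an inhibitory subunit of rods, had a single count. Pde7b and Pde7a, cyclic AMP-specific enzymes, stood at 20.6 ± 1.76 and 15.4 ± 2.16 TPM. The dual-substrate genes Pde11a, Pde3a and Pde3b were low at 8.35 ± 4.67, 3.47 ± 0.572 and 2.01 ± 0.612 TPM, and Pde8a stood at 7.89, 3.95 and 2.91 TPM.

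Against Pde2a, 18 of 21 other PDE genes with a count lay lower and 3 did not pass the test, and 0 lay higher (limma, also 0 at an unadjusted p under 0.05), while 90.1% of all genes were called below Pde2a and 4.07% above it. For Pde1a the difference was 0.39 on the log2 scale (SD 0.18; limma, adjusted p = 0.0687), positive in 3 of 3 libraries, and it passed with a pseudocount of 1 (adjusted p = 0.0406) or another filter on low counts. The log2 values were -0.34 for Pde4a (limma, adjusted p = 0.081) and -0.17 for Pde4b (limma, adjusted p = 0.421). The value for Pde4a passed without a filter on low counts (adjusted p = 0.0289) and with unmoderated spread (adjusted p = 0.0316). Pde4d lay 1.90-fold and Pde8b 2.05-fold below Pde2a (limma, adjusted p = 0.00666 and 0.00317), Pde10a 3.32-fold (adjusted p = 0.00179) and Pde5a 4.96-fold (adjusted p = 0.000491). The place of the Pde4 genes rests on length: the merged exons of Pde4d cover 12006 nt and its principal transcript 2554 nt, and with the latter its log2 difference from Pde2a turned from -0.92 to 0.68. That of Pde4b turned to 0.49, while that of Pde1a was 0.26. Pde2a lies on chromosome 7 from 101421691 to 101512827, and the gene model Gm45837 overlapped 64.3% of its exons on the same strand. Whether reads there were counted for Pde2a is not known, which limits every difference from Pde2a.

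**Figure D2:**
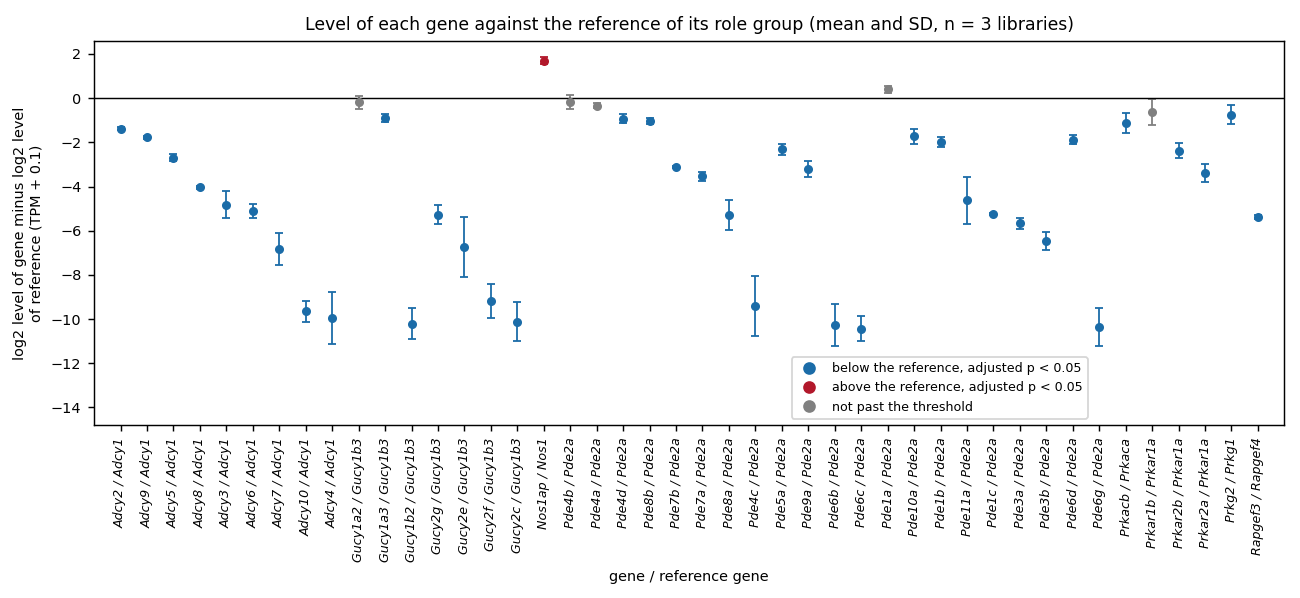
Log2 level of each gene minus that of the reference gene of its role group in the same library (vertical axis, TPM + 0.1), as mean and SD over the 3 libraries for the 44 genes tested. Nos1ap is the only point called above its reference, 38 genes are called below theirs, and Gucy1a2, Pde1a, Pde4a, Pde4b and Prkar1b are not past the threshold.

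In TPM, the 4 most abundant of these transcripts encoded PKA subunits. Without length correction, Adcy1 at 697 ± 45.3 CPM stood above Prkar1b at 493 ± 69.3 CPM and Prkaca at 490 ± 133 CPM. Above the library median lay 6 of 6 PKA genes and 42.8% of all genes tested. The catalytic gene Prkaca stood at 1340.5, 759.8 and 905 TPM (1002 ± 302), and Prkacb at 435, 459 and 440.2 TPM (445 ± 12.6). Prkaca was highest in replicate 1 and varied widely, while Prkacb hardly moved. The type I regulatory gene Prkar1a stood at 752, 1161 and 1176 TPM (1029.7 ± 241), lowest in replicate 1. Its neural relative Prkar1b stood at 786, 588 and 598 TPM (657 ± 111), highest in replicate 1. Among type II regulatory genes, Prkar2b, the form enriched in brain, stood at 189.7, 207 and 187 TPM and Prkar2a at 96.4 ± 4.13 TPM.

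Type I regulatory transcripts summed to 5.29, 5.79 and 6.33 times the type II sum. All regulatory genes together stood at 1.03, 1.68 and 1.53 times the catalytic sum, so the replicates did not share a ratio. Prkar1a was 0.957 times Prkar1b in replicate 1 and 1.97 times in both others. Against Prkar1a, the log2 difference of Prkar1b was -0.63 (SD 0.60; limma, adjusted p = 0.108), and without replicate 1 it was -0.98 and passed (limma, adjusted p = 0.00902). The difference also passed with a pseudocount of 1 or a mean of at least 1 CPM (limma, adjusted p = 0.0322 and 0.0355). Without length correction it was -0.81 and passed (limma, adjusted p = 0.0366), while either single-transcript length gave -0.40. Prkar2b lay 5.19-fold and Prkar2a 10.5-fold below Prkar1a (limma, adjusted p = 0.000238 and 4.93e-05), where 98.9% of all genes were called lower and 0.264% higher.

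Prkacb lay 2.19-fold below Prkaca, or by -1.13 on the log2 scale (SD 0.46; limma, adjusted p = 0.0169), and 98.6% of all genes were called below Prkaca and 0.252% above it. The call was lost without replicate 2 (adjusted p = 0.0529) or replicate 3 (adjusted p = 0.104) and with single-transcript lengths (-0.25), and the direction turned to 0.69 without length correction. The merged exons of Prkacb cover 8772 nt, against 4347 nt for its principal transcript and 2488 nt for the merged exons of Prkaca. Prkaca lies on chromosome 8 from 83972993 to 83996443 and Prkar1a on chromosome 11 from 109649405 to 109669656.

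**Figure D3:**
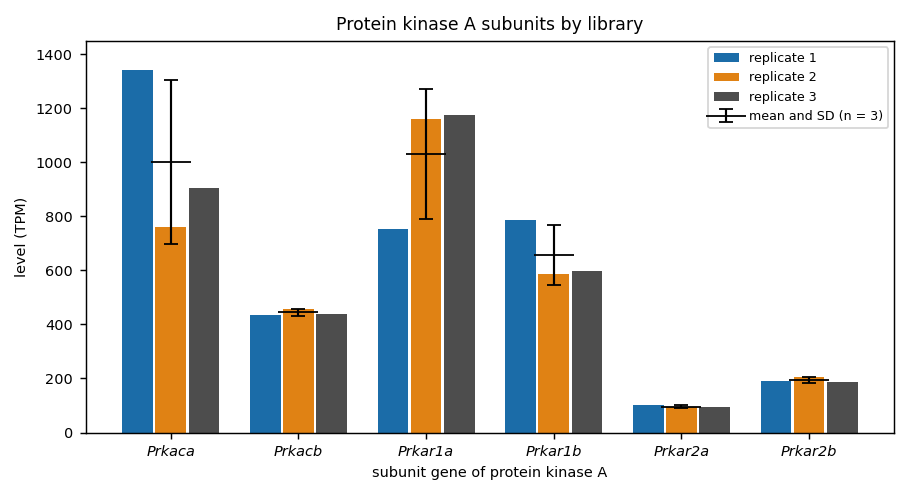
Level of the 6 PKA subunit genes in TPM (vertical axis from 0), with 1 bar per library and the mean and SD over the 3 libraries in black. Prkaca and Prkar1b are highest and Prkar1a lowest in replicate 1, while Prkacb, Prkar2a and Prkar2b differ little between libraries.

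The genes of PKG, which responds to cyclic GMP, were low by comparison with those of PKA. Prkg1, the PKG isoform of smooth muscle and Purkinje cells, stood at 14.4, 15.6 and 16.99 TPM (15.7 ± 1.31). The membrane-bound isoform encoded by Prkg2 stood at 11.6, 9.00 and 7.61 TPM (9.39 ± 2.002). The catalytic PKA genes summed to 68.5, 49.4 and 54.7 times the PKG genes, and to 32.8, 27.1 and 27.1 times without length correction. Prkg2 lay 1.68-fold below Prkg1 (limma, adjusted p = 0.0375), where 48% of all genes were called lower, and this call was lost without replicate 2 (adjusted p = 0.137) or replicate 3 (adjusted p = 0.134). Prkg1 lay above the library median by a log2 difference of 0.49 (limma, adjusted p = 0.0322), a call lost without any single library (adjusted p 0.0548 to 0.185).

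The Epac genes differed widely. Rapgef4, the Epac form of brain, stood at 178, 172 and 179 TPM (176 ± 3.71), with little spread between libraries. Rapgef3, the more widely distributed form, stood at 3.89, 4.04 and 4.43 TPM (4.12 ± 0.275). Rapgef4 exceeded Rapgef3 41.9-fold (limma, adjusted p = 0.000149), where 90.2% of all genes were called below Rapgef4 and 4.24% above it. Rapgef4 lies on chromosome 2 from 71981240 to 72257474, and its antisense gene Rapgef4os2 overlapped 5.05% of its exons.

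**Figure D4:**
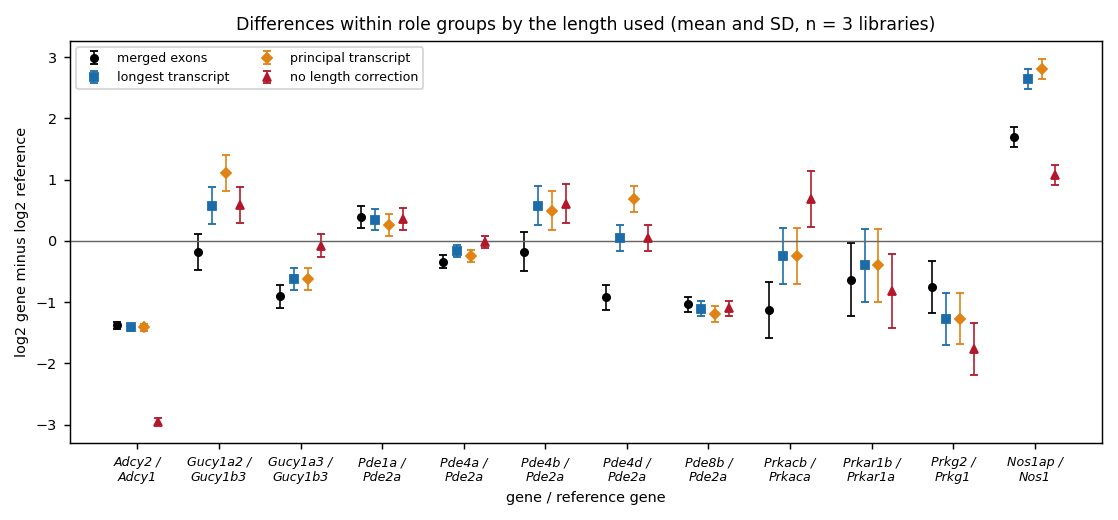
Log2 difference of 12 genes from their reference genes (vertical axis) with 4 choices of length, as mean and SD over the 3 libraries. Gucy1a2, Pde4b, Pde4d and Prkacb change sign between choices, whereas Pde8b keeps about the same difference under all of them.

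Counts of many enzyme genes differed between libraries by more than counting error, as did those of most genes. Of the 43 enzyme genes that averaged 1 CPM or more, 36 passed a chi-square test of their counts against TMM-scaled library sizes (Benjamini-Hochberg adjusted p under 0.05), and of all 12949 genes tested 74.2% did. A ratio of at least 1.5 between the highest and the lowest library was found together with that call for 14 of the 43, against 37.4% of all genes. The 14 were Gucy2e, Pde11a, Adcy7, Pde8a, Adcy3, Pde3b, Prkaca, Gucy2g, Pde4b, Gucy1a2, Prkg2, Pde5a, Prkar1a and Pde6d. Without replicate 1, 18 of 43 passed, against 42.6% of all genes. The other 12 enzyme genes were below 1 CPM on average and were not tested.

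Replicate 1 was the highest library for 26 of the 43 and the lowest for 11, whereas among all genes it was the highest for 4916 and the lowest for 5209 of 12949. Normalised counts of Prkaca were 9555, 5316 and 6268 in replicates 1, 2 and 3, a ratio of 1.80 between extremes. Those of Prkar1a were 9311, 14109 and 14146 (ratio 1.52), in the opposite direction. Pde4b was highest in replicate 1, with 6343, 4541 and 3703 normalised counts (ratio 1.71), and so was Pde8a, with 91.5, 45.0 and 32.8 (ratio 2.79). The oligodendrocyte marker sum had the same order of libraries as Pde4b and Pde8a, as did 2 of its 6 genes, among them Cnp at 136, 93.2 and 78.1 TPM, while Mbp stood at 37.3 ± 0.22 TPM. Its part in these differences was not tested. Pde11a, an enzyme known from the hippocampus, had 172, 155 and 43.4 normalised counts and was low in replicate 3 alone. Pde3b, the cyclic GMP-inhibited enzyme of insulin signalling, had 67.6, 53.0 and 34.7.

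At the other end, Prkacb had 10925, 11317 and 10748 normalised counts (ratio 1.05; adjusted p = 0.000783), and Rapgef4 did not pass the test at a ratio of 1.05 (adjusted p = 0.122). Gucy1b3 (adjusted p = 0.0790), Adcy9 (0.121), Pde1c (0.657), Pde3a (0.0694), Prkg1 (0.120) and Rapgef3 (0.824) did not pass either. The biological coefficient of variation estimated by edgeR had a median of 17.5% over the 43 enzyme genes and 22.4% over all genes tested, with 13.01% for Prkacb as the lowest of them and 54.2% for Gucy2e as the highest.

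**Figure D5:**
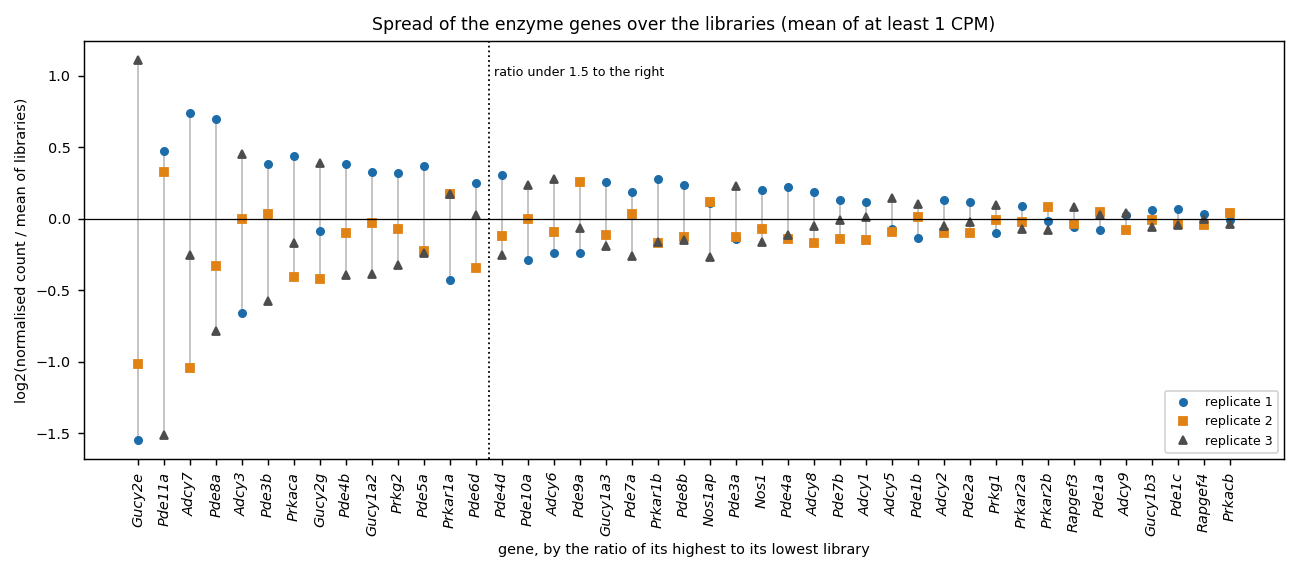
Spread of the 43 enzyme genes that averaged 1 CPM or more, as log2 of each library's normalised count over the mean of the 3 libraries (vertical axis), ordered by the ratio of highest to lowest library. Replicate 3 is high for Gucy2e and low for Pde11a, replicate 1 is high for Prkaca and Pde4b and low for Prkar1a and Adcy3, and Prkacb is at the flat end.

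Partners of these enzymes were described with 56 further genes of the pathway, of which 25 lay above the library median, 11 below and 15 did not pass the test, and 5 had no count (limma, adjusted p under 0.05; 42.8% and 42.4% of all genes were called above and below). Of 12 PKA anchoring proteins 7 were above the median, led by the synaptic anchor Akap5 at 191 ± 7.20 TPM and Akap11 at 188 ± 16.9 TPM. Among 3 PKA inhibitor genes, Pkia stood at 408 ± 26.2 TPM and Pkib at 9.37 ± 3.32 TPM. All 5 phosphatase regulators were above the median, with Ensa at 91.2, 210.2 and 312 TPM and Arpp19 at 136, 173 and 175 TPM, so that Arpp19 was the higher of both in replicate 1 and Ensa in replicates 2 and 3. In the CREB group of 8 genes, 5 were above, led by the coactivators Crebbp at 162 ± 22.4 TPM and Ep300 at 106 ± 19.4 TPM, while Creb1 itself stood at 23.1 ± 3.02 TPM.

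Of the 6 Cng genes, which encode cyclic nucleotide-gated channels of sensory cells, 4 had no count. Of 3 natriuretic peptide receptor genes, Npr2, which carries its own guanylyl cyclase domain, stood at 8.03 ± 2.30 TPM, and Npr3, the clearance receptor, at 4.41 ± 1.51 TPM. Among other nitric oxide genes, the light chain Dynll1 stood at 101, 242 and 286 TPM, lowest in replicate 1, and Nosip at 59.4 ± 5.49 TPM, while the inducible and endothelial synthases Nos2 and Nos3 were called below the median. Rap1a and Rap1b, the GTPases that Epac activates, stood at 170.2 ± 15.3 and 35.9 ± 4.37 TPM. Of the remaining lists, the exporters Abcc5 and Abcc4 stood at 12.2 ± 1.78 and 2.24 ± 0.826 TPM, the Popeye proteins Popdc3 and Popdc2 at 10.6 ± 5.68 and 0.998 ± 0.757 TPM, Prkx at 13.8 ± 1.85 TPM, and Pde4dip and Pde12 at 60.1 ± 3.27 and 8.66 ± 1.13 TPM.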

How the data were processed

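The authors deposited whole-number read counts per gene symbol, 1 table per library, not normalized. STAR 2.0.0e, HTSeq and mm10 stand in the submitters' processing notes without their roles. The sources used here do not give the annotation, counting mode or strand setting, and overlapping genes cannot be told apart by strand. Lines that name no gene stayed out of library sizes: 11.0% to 13.1% of records fell on no feature, 2.49% to 2.83% were ambiguous and 11.2% to 13.1% had no unique alignment.

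Merged exon lengths came from GENCODE M21 (GRCm38), which matched 23155 symbols directly and 735 by an older name, among them 2 of the 55 enzyme genes (Gucy1a3 and Gucy1b3). TPM was computed here, and log2(TPM + 0.1) understates differences of genes near 0. Genes with a count in at least 1 library were tested with limma 3.58.1 against the library median and, in separate fits, against 8 reference genes, each two-sided, with Benjamini-Hochberg adjustment over all its genes and 0.05 as threshold. Noise of a reference enters every difference from it. The references Adcy1, Gucy1b3, Prkaca, Prkar1a, Prkg1 and Rapgef4 had the highest mean TPM of their role groups. Calls below these genes largely follow from that rank. Variation between libraries was tested by chi-square with edgeR 4.0.16 TMM factors, and DESeq2 1.42.0 size factors were an alternative. The work used Python 3.11.15 with pandas 2.3.3 and matplotlib 3.10.9, and R 4.3.3.

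The enzyme genes and lists were chosen with earlier results of these data known. Named in full are the reference genes, the 2 highest genes of each role group and those past the chi-square test with a ratio of at least 1.5. Alternatives in length, filter, pseudocount, moderation, reference level and left-out library are compared in the closing section, and the effect of length on sums and ratios was added after seeing the data. Values of some listed partner and marker genes are not reported here.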

Additional observations from a re-analysis of the deposited data

How the results depend on the processing

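Numbers of enzyme genes called above (29) or below (17) the library median stayed within 1.5 times under all alternatives run, from 25 to 40 and from 12 to 18. The number tested was 52, but 43 with a mean of at least 1 CPM (25 above, 15 below). It was 55 without a filter (40 above, 12 below). Genes called above their reference numbered 1, Nos1ap, and 2 with a pseudocount of 1, a mean of at least 1 CPM or no filter, and 3 with the longest transcript, the principal transcript or no length correction. Genes called below their reference numbered 30 (of 35 tested, mean of at least 1 CPM) to 42 (of 47, no filter), against 38 of 44. Leaving out 1 library gave 36 to 39 of these, 1 called above, 26 to 27 above and 16 below the median, and 18 to 31 genes varying between libraries, against 36. With unmoderated spread, 6 calls were lost and 1, Pde4a against Pde2a, was gained. Lost were Prkacb against Prkaca and Prkg2 against Prkg1 (unmoderated t-test, adjusted p = 0.0511 and 0.107). Against the library median, Adcy7, Adcy8, Gucy2e and Pde8a were lost (unmoderated t-test, adjusted p 0.0679 to 0.132).

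Single log2 differences turned as follows. From the library median, without length correction, Adcy3 was 0.41, Adcy6 0.22, Pde1c 0.996 and Prkg2 0.10. With the principal transcript, Pde1c was 0.53 and Nos1 -0.28, and with the longest transcript Nos1 was -0.12. Without a filter, which lowers the median, Adcy3 was 2.20, Adcy6 1.90, Adcy7 0.21, Gucy2g 0.89, Pde11a 1.75, Pde1c 1.13, Pde3a 0.71, Pde8a 1.09, Prkg2 2.11 and Rapgef3 0.96. With a mean of at least 1 CPM, which raises it, Adcy8 was -0.39, Nos1 -0.85, Pde7a -0.54, Pde7b -0.12, Pde9a -0.21 and Prkg1 -0.51. Against protein-coding genes Nos1 was -0.07. Leaving out 1 library gave -0.40 (without replicate 3) to 0.078 (without replicate 1) for Adcy3, -0.0021 (without replicate 1) to 0.26 (without replicate 3) for Nos1 and -1.02 (without replicate 1) to 0.032 (without replicate 3) for Pde11a. From the reference, with no length correction, the longest and the principal transcript, Gucy1a2 was 0.58, 0.58 and 1.11, Pde4b 0.61, 0.58 and 0.49, and Pde4d 0.042, 0.046 and 0.68. Prkacb was 0.69 without length correction. Where no length or filter choice shows why, the cause was not tested. Of 1090 single-gene values under an alternative, 998 kept their direction and side of the threshold, 24 came to pass it, 31 no longer passed and 37 turned. No paired analysis was possible because there is 1 group. Counts below about 10 per library limit Adcy4, Adcy10, Gucy1b2, Gucy2c, Gucy2f, Pde4c, Pde6b, Pde6c and Pde6g.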
